A study of Homo sapiens with 12 samples.

Results

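The basal and stress keratins are 8 genes of stratified epithelium, KRT5, KRT14, KRT15, KRT17, KRT6A, KRT6B, KRT6C and KRT16, taken by symbol from the 29744 gene rows of an RNA-seq count table. All 8 had a row and all 8 passed the filter on low counts that left 14417 genes for testing. They were described in 12 RNA-seq libraries of 4 human mammary epithelial lines, 3 biological replicates of each line, prepared to assess a workflow that recovers DNA, RNA and peptides together. NeoT (MCFNeoT, benign hyperplasia in the series design) carries a mutant HRAS introduced into MCF10A, T1 (MCFT1, called atypical hyperplasia there) and CA1 (MCFCA1, the invasive cancer line) derive from such cells after growth as xenografts, and A10 (MCF10A) is the non-tumorigenic parent. All 4 lines therefore share the MCF10A background. The derivations are background knowledge of these lines, and the labels give no culture conditions, passage number or clonal state.

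Keratins are the intermediate filament proteins of epithelial cells. A filament is built from pairs of an acidic type I and a basic type II chain, so that KRT5 pairs with KRT14 or KRT15 in basal cells, and KRT6 chains pair with KRT16 or KRT17. KRT5 and KRT14 mark basal keratinocytes and the basal or myoepithelial layer of the breast, while KRT6A, KRT6B, KRT16 and KRT17 are the keratins that keratinocytes switch on after wounding and in inflamed skin. The type II genes KRT5, KRT6A, KRT6C and KRT6B lie in the keratin cluster of chromosome 12, and the type I genes KRT15, KRT14, KRT16 and KRT17 lie in that of chromosome 17, all on the minus strand.

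Library totals ran from 18032399 to 35730423 counts, and Pearson's r of log2 CPM was 0.978 to 0.989 within a line and 0.808 to 0.905 between lines. T1 replicate 1 stood apart with 7.76% of its counts in cytoplasmic rRNA rows, against 0.954 to 2.18% in the other libraries, and the spread between NeoT libraries (biological coefficient of variation 15.996%) was larger than in T1 (8.34%), CA1 (6.42%) and A10 (8.60%). HRAS averaged 239 ± 21.7 CPM in NeoT, 158 ± 11.9 CPM in T1, 302 ± 11.9 CPM in CA1 and 64.5 ± 4.59 CPM in A10. The epithelial label was checked on 8 marker genes, whose summed level ran from 751 to 867 CPM in NeoT, 4777 to 4857 CPM in T1, 8786 to 9534 CPM in CA1 and 1204 to 1253 CPM in A10. NeoT went against the label: 6 of these 8 markers fell and 1 rose there against A10, and its sum was mostly KRT8 (473 CPM) and KRT18 (329 CPM). CDH1, the cadherin of epithelial junctions, averaged 0.691 ± 0.452 CPM in NeoT and 313 ± 16.3 CPM in A10, and in NeoT CLDN1 was 467-fold, ESRP1 259-fold and EPCAM 5.79-fold lower than in A10. The 12 mesenchymal markers summed to 17202 to 20844 CPM in NeoT, mostly FN1 (14249 to 17773 CPM) and VIM (2235 ± 23.3 CPM), against 205 to 217 CPM in T1, 561 to 582 CPM in CA1 and 2029 to 2240 CPM in A10. Of 11 tested, 7 rose in NeoT and 1 fell against A10 (2 fell without NeoT replicate 3), and the called fall was SPARC, at 0.815 ± 0.215 CPM in NeoT and 70.5 ± 1.25 CPM in A10. None of the 12 was at 0 in NeoT, T1 or A10, and COL1A2, COL3A1, DCN and LUM were at 0 in CA1. The 5 leukocyte markers summed to 204 to 219.6 CPM in NeoT, 95.5 to 104 CPM in T1, 102 to 106 CPM in CA1 and 70.3 to 73.6 CPM in A10, with PTPRC and CD3E at 0 counts in every library. The part of these marker levels in the keratin results was not tested. In bulk libraries, fewer cells that express a gene and less RNA per cell cannot be told apart.

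Levels are given as CPM, the usual depth-normalised count unit, after TMM scaling, as mean ± SD over 3 libraries (n = 3) unless each library is listed in the order of replicates 1, 2 and 3. Differences are log2 fold changes ± SE from edgeR's quasi-likelihood test, and calls are made where the p, Benjamini-Hochberg adjusted over all 14417 genes, is under 0.05. These p-values rest on the spread between the 3 biological replicates of a line, pooled over the 4 lines, and not on that between independent lines of a kind. Each of the 8 keratins differed among the 4 lines, with adjusted p between 1.91e-22 for KRT15 and 5.59e-05 for KRT6C, but 89.8% of all tested genes did so too. The plot of each keratin by library shows that no keratin had the same level in all 4 lines and that NeoT held the lowest level of every member except KRT6A, which was lowest in CA1.

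**Figure D1:**
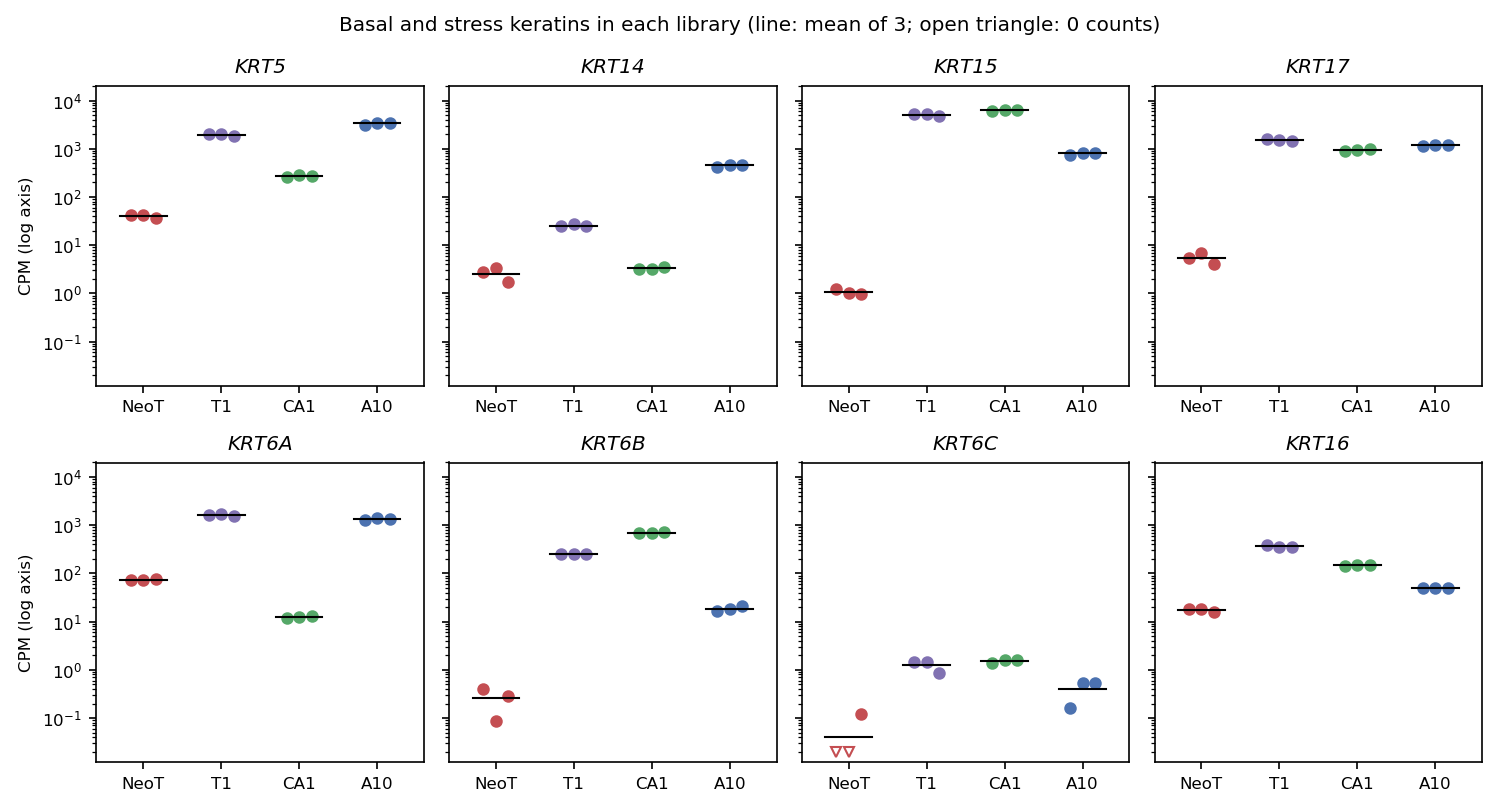
Level of each of the 8 keratins in each library, in CPM on a log axis, by cell line. Points are libraries, lines are means of 3 and open triangles mark libraries with 0 counts. KRT6A falls to 12.4 CPM in CA1 while KRT6B reaches 706 CPM there.

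KRT5, the type II keratin of the basal layer (GRCh38 chr12:52514575-52520687), fell in all 3 derived lines and most in NeoT. KRT5 had 42.5, 41.9 and 36.2 CPM in NeoT, 2035, 1999.6 and 1853 CPM in T1, and 256, 289 and 266 CPM in CA1, against 3171, 3433 and 3435 CPM in A10. No 2 lines overlapped, and the order of levels was A10, T1, CA1, NeoT, with every neighbouring pair called. KRT5 was 83.2-fold lower in NeoT than in A10 (log2 fold change -6.38 ± 0.09, edgeR adjusted p = 3.84e-20), 1.71-fold lower in T1 (-0.77 ± 0.07, adjusted p = 1.97e-08) and 12.4-fold lower in CA1 (-3.63 ± 0.08, adjusted p = 1.45e-17). Between the derived lines, KRT5 was 48.8-fold higher in T1 than in NeoT and 7.25-fold lower in CA1 than in T1.

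KRT5 was the only member with an entry in the RefSeq promoter table, and the 250 bases before its start (GRCh38.p14 chr12:52520395-52520644, minus strand, written 5′ to 3′) are shown because KRT5 has the highest per-length level of the type II members in A10. The capitals mark CAGGTG, an E-box, which begins 130 bases before the start. The RefSeq start used here is at 52520394, inside the longer GENCODE v29 gene given above, so the window lies within that gene's range.
KRT5 promoter: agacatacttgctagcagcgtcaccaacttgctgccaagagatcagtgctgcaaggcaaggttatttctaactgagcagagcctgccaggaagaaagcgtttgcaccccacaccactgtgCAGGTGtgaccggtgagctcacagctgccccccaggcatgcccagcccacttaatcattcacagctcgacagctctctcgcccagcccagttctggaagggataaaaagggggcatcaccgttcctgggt
CAGGTG was the single match among 5 motifs searched on both strands, and 17.5% of the 35116 promoters of this length in the table hold it. Other forms of the E-box, such as the cagctg that follows it in the window, were not searched. The TATA box motif TATAAA had no exact match in this window, and 10.7% of the promoters hold it. Variants of that motif, such as the ataaaa near the end of the window, were not searched. The AP-1 motif TGANTCA (6.57% of promoters), the AP-2 motif GCCNNNGGC (19.8% of promoters) and the Sp1 motif GGGCGG (42.6% of promoters) had none either.

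KRT14, the usual type I partner of KRT5 in basal cells (chr17:41582279-41586921), was far higher in A10 than in the derived lines. KRT14 had 2.71, 3.28 and 1.74 CPM in NeoT, 24.5, 26.8 and 24.6 CPM in T1, and 3.27, 3.15 and 3.56 CPM in CA1, against 427, 469.7 and 455 CPM in A10. The A10 libraries were above all others and the T1 libraries stood between, while the NeoT and CA1 libraries overlapped. KRT14 was 171-fold lower in NeoT than in A10 (-7.42 ± 0.13, edgeR adjusted p = 4.97e-19), 17.8-fold lower in T1 (-4.15 ± 0.10, adjusted p = 2.56e-16) and 135-fold lower in CA1 (-7.08 ± 0.12, adjusted p = 1.87e-18). KRT14 in CA1 and NeoT did not differ beyond the spread (0.34 ± 0.16, adjusted p = 0.0772), although the pair was called without NeoT replicate 2, the highest NeoT library (0.55, adjusted p = 0.00932).

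KRT15, a type I keratin of basal cells and of hair follicle stem cells (chr17:41513743-41522529), went the other way from KRT5 and KRT14 in the xenograft-passaged lines. KRT15 had 1.22, 1.04 and 0.987 CPM in NeoT, 5284, 5165 and 4882 CPM in T1, and 6015, 6426 and 6348 CPM in CA1, against 749.5, 832 and 832 CPM in A10. All T1 and CA1 libraries lay above all A10 libraries, and the NeoT libraries held 17 to 28 counts each. KRT15 was 736-fold lower in NeoT than in A10 (-9.52 ± 0.10, edgeR adjusted p = 1.24e-21), 6.35-fold higher in T1 (2.67 ± 0.06, adjusted p = 2.17e-16) and 7.79-fold higher in CA1 (2.96 ± 0.06, adjusted p = 1.89e-17). The step between CA1 and T1 was small but called, at 1.23-fold higher in CA1 (0.29 ± 0.06, adjusted p = 0.000258).

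KRT17, a type I keratin of basal and wounded epithelium (chr17:41619441-41624842), was low in NeoT, and the means of the other 3 lines lay within 1.62-fold of each other. KRT17 had 5.45, 6.77 and 4.12 CPM in NeoT, 1587, 1545 and 1427 CPM in T1, and 916, 919.7 and 977 CPM in CA1, against 1137, 1197 and 1196 CPM in A10. The order was T1, A10, CA1, NeoT with no overlap between lines. KRT17 was 213-fold lower in NeoT than in A10 (-7.73 ± 0.12, edgeR adjusted p = 1.93e-19), while T1 was 1.29-fold higher (0.37 ± 0.08, adjusted p = 0.00104) and CA1 1.26-fold lower (-0.33 ± 0.08, adjusted p = 0.00177) than A10.

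The KRT6 genes encode nearly the same type II stress keratin, and their reads are hard to assign. Over 1692 coding bases of the GENCODE v29 transcripts, KRT6A and KRT6B differ at 42 bases (97.5% identity), KRT6A and KRT6C at 35 (97.9%) and KRT6B and KRT6C at 25 (98.5%). Of all windows of 100 coding bases, 24.2% in KRT6A, 32.4% in KRT6B and 42.1% in KRT6C also occur in another KRT6 gene, so a read of that length within them fits more than 1 gene. A stretch with dense differences, coding bases 656 to 745, is shown because reads across it separate the paralogs. It lies at chr12:52491532-52491621 in KRT6A, chr12:52450416-52450505 in KRT6B and chr12:52472076-52472165 in KRT6C (GRCh38, minus strand, written 5′ to 3′), and capitals mark the 10 positions at which KRT6A and KRT6B differ.
KRT6A: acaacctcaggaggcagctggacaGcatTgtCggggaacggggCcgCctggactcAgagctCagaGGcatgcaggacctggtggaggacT
KRT6B: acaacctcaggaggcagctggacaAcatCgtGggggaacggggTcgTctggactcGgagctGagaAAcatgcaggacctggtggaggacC
KRT6C: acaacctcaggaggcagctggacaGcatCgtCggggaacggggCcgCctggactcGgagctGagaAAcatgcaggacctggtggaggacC
In this stretch KRT6C differs from KRT6A at 6 positions and from KRT6B at 4.

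KRT6A and KRT6B moved in opposite directions in CA1. KRT6A (chr12:52487174-52493257) had 73.4, 72.6 and 76.4 CPM in NeoT, 1623, 1685 and 1528 CPM in T1, and 11.99, 12.2 and 12.9 CPM in CA1, against 1267, 1397 and 1352 CPM in A10. T1 was highest and CA1 lowest, below even NeoT, with no overlap. KRT6A was 18.1-fold lower in NeoT than in A10 (-4.17 ± 0.07, edgeR adjusted p = 2.45e-19), 1.20-fold higher in T1 (0.27 ± 0.06, adjusted p = 0.000755) and 108-fold lower in CA1 (-6.76 ± 0.08, adjusted p = 9.94e-21). Against T1, KRT6A was 130-fold lower in CA1 (-7.02 ± 0.08, adjusted p = 5.97e-21), and against NeoT it was 5.99-fold lower in CA1, the sole member below NeoT in either xenograft-passaged line.

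KRT6B (chr12:52446651-52452126) had 0.394, 0.0864 and 0.291 CPM in NeoT, 251.5, 249.3 and 248.7 CPM in T1, and 685, 701 and 730.1 CPM in CA1, against 16.8, 17.96 and 20.9 CPM in A10. Here CA1 was highest, T1 next and A10 far below both, while the NeoT libraries held 2 to 9.04 counts each. KRT6B was 71.9-fold lower in NeoT than in A10 (-6.17 ± 0.19, edgeR adjusted p = 2.00e-15), 13.5-fold higher in T1 (3.75 ± 0.09, adjusted p = 4.20e-16) and 38.1-fold higher in CA1 (5.25 ± 0.10, adjusted p = 4.85e-18). It was also 2.82-fold higher in CA1 than in T1 (1.50 ± 0.08, adjusted p = 2.26e-11).

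KRT6C (chr12:52468516-52473785) was close to the limit of detection. KRT6C had 0, 0 and 0.119 CPM in NeoT, 1.48, 1.42 and 0.840 CPM in T1, and 1.36, 1.60 and 1.63 CPM in CA1, against 0.162, 0.522 and 0.532 CPM in A10. The highest library held 44.9 counts, and NeoT held 2 counts in its 3 libraries together, both in replicate 3. The ratio of NeoT to A10 was 0.0854, with an exact 95% interval of 0.00994 to 0.333 that covers counting error only. KRT6C was 3.83-fold higher in CA1 than in A10 (1.94 ± 0.60, edgeR adjusted p = 0.00712) and 3.17-fold higher in T1 (1.66 ± 0.59, adjusted p = 0.0243). The T1 call was lost without T1 replicate 1 (adjusted p = 0.0748), T1 replicate 2 (adjusted p = 0.0690) or A10 replicate 1 (adjusted p = 0.110). KRT6C in CA1 and T1 did not differ beyond the spread (0.28 ± 0.55, adjusted p = 0.682).

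The make-up of the KRT6 counts was nearly the same in the 3 libraries of each line and differed between lines, as the plot of KRT6 shares shows. KRT6B made up 0.344% ± 0.210 of KRT6 counts in NeoT, 13.4% ± 0.555 in T1, 98.1% ± 0.0202 in CA1 and 1.37% ± 0.135 in A10. In CA1 the share ran from 98.05 to 98.09%, so all 3 libraries held mainly KRT6B, and in A10 KRT6A held 98.4 to 98.7%. The summed KRT6 level was 74.4 ± 2.10 CPM in NeoT, 1863 ± 79.7 CPM in T1, 719 ± 23.3 CPM in CA1 and 1358 ± 67.1 CPM in A10. With the 3 genes summed before the test, CA1 was lower than A10 (-0.92, edgeR adjusted p = 7.11e-11) and lower than T1 (-1.37, adjusted p = 5.48e-13), the direction of KRT6A in both. Against NeoT the sum was higher in CA1 (3.27, adjusted p = 1.38e-18), the direction of KRT6B.

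**Figure D2:**
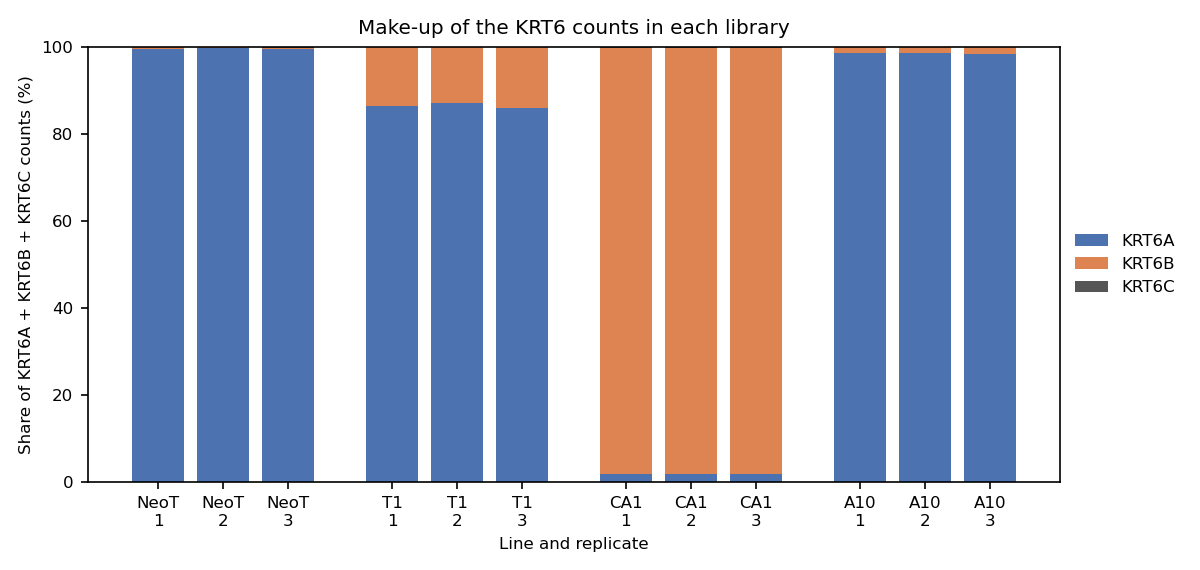
Share of KRT6A, KRT6B and KRT6C in the summed KRT6 counts of each library, in percent, by line and replicate. Bars are single libraries, and KRT6B fills 98.1% of the CA1 bars on average but 1.37% of the A10 bars.

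The counts of these genes carry the marks of reads divided between them. KRT6A and KRT6B had a count that was not whole in 12 of 12 libraries and KRT6C in 10, while KRT5 had one in 8. The sum of KRT5, KRT6A, KRT6B and KRT6C was whole in 12 of 12 libraries within a tolerance of 0.005. The fractions of the 4 genes thus cancelled in each library. KRT5 shares 77.9% identity with KRT6A over the coding sequence. KRT15 and KRT17 had whole counts in every library.

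KRT16, the type I keratin induced together with KRT6 after injury (chr17:41609778-41615899), was highest in T1. KRT16 had 17.96, 18.3 and 16.2 CPM in NeoT, 387, 356 and 345 CPM in T1, and 142, 146 and 150.4 CPM in CA1, against 48.8, 51.0 and 49.1 CPM in A10. The order was T1, CA1, A10, NeoT with no overlap. KRT16 was 2.83-fold lower in NeoT than in A10 (-1.50 ± 0.07, edgeR adjusted p = 1.59e-12), the smallest fall of a member in NeoT, and was 7.31-fold higher in T1 (2.87 ± 0.07, adjusted p = 3.39e-16) and 2.95-fold higher in CA1 (1.56 ± 0.07, adjusted p = 3.31e-13). KRT14 and KRT16 are 85.2% identical over the coding sequence, their counts were not whole in 10 libraries each, and their sum was whole in 12 of 12 within a tolerance of 0.005. The pseudogene KRT16P2 held 109 counts over the 3 CA1 libraries, 1 count in NeoT, 1 in T1 and 0 in A10, against 2523 to 3589 counts of KRT16 in each CA1 library.

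Against A10, the members were called in 1 direction in NeoT and divided in the other lines. In NeoT, 8 of 8 fell and 0 rose, where 70.4% of all genes were called, 33.7% up and 36.7% down. The NeoT and A10 libraries did not overlap for 8 of 8 members and for 70.7% of all genes. The median log2 fold change of the 8 was -6.27, against -0.04 over all tested genes. In T1, 6 rose and 2 fell, where 51.9% of all genes were called, 26.0% up and 25.9% down, and the median was 1.02 against -0.01 over all genes. The T1 and A10 libraries did not overlap for 8 members and for 62.1% of all genes. In CA1, 4 rose (KRT15, KRT6B, KRT6C and KRT16) and 4 fell (KRT5, KRT14, KRT17 and KRT6A), where 70.9% of all genes were called, 34.4% up and 36.5% down, and the median was 0.62 against -0.02. Here too the libraries did not overlap for 8 members, and for 76.9% of all genes. These 3 comparisons share the A10 libraries.

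Between the derived lines, 8 of 8 members were higher in T1 than in NeoT, where 67.4% of all genes were called, 35.0% up and 32.4% down, and the median log2 fold change was 5.35 against 0.01 over all genes. In CA1 against NeoT, 6 were higher, KRT6A was lower and KRT14 was not called, where 66.4% of all genes were called, 33.8% up and 32.7% down. In CA1 against T1, KRT15 and KRT6B were higher, 5 were lower and KRT6C was not called, where 62.2% of all genes were called, 30.4% up and 31.9% down. KRT6A fell most in that step (log2 fold change -7.02 ± 0.08). KRT14 (-2.92 ± 0.12) and KRT5 (-2.86 ± 0.07) came next and lay close to each other. The 2 lines of a comparison did not overlap for 8 members in T1 against NeoT (68.6% of all genes), for 7 in CA1 against NeoT (67.9% of all genes) and for 7 in CA1 against T1 (71.0% of all genes). The plot of fold changes puts these comparisons side by side.

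**Figure D3:**
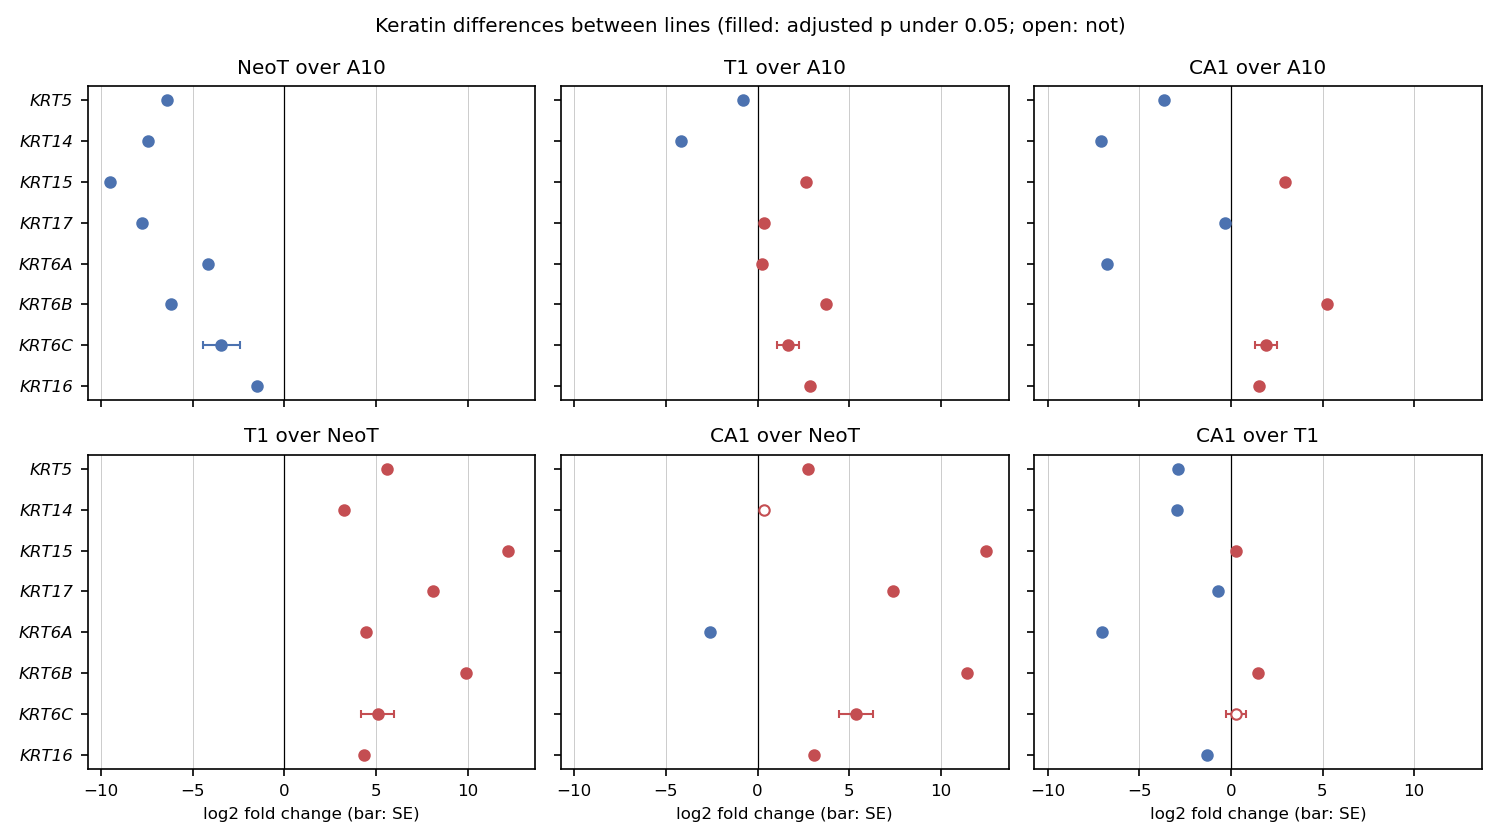
Log2 fold change of each keratin in each of the 6 comparisons of lines, with bars for the SE. Filled points passed an adjusted p of 0.05 and open points did not. All 8 points lie left of 0 for NeoT over A10, and KRT6A lies farthest left for CA1 over T1 at -7.02.

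Per kb of transcript, which allows genes to be compared, the leading member changed with the line. In NeoT it was KRT6A at 32.1 ± 0.852 CPM per kb, in T1 KRT15 at 2135 ± 86.2, in CA1 KRT15 at 2616 ± 91.0 and in A10 KRT5 at 1322 ± 59.9 CPM per kb. Among the 4 type I members, KRT15 made up 4.09% ± 0.499 of the counts in NeoT, 72.8% ± 0.272 in T1, 85.2% ± 0.462 in CA1 and 32.4% ± 0.598 in A10. Shares of counts in this paragraph are not divided by length. The KRT15 transcript has 2.394 kb against 1.517 to 1.662 kb for the other type I members, which raises its share. Per kb, KRT15 was above KRT17 in T1 (KRT17 at 1002 CPM per kb) and CA1 (618). In A10 it was below KRT17, at 336 against 776 CPM per kb. KRT14, which pairs with KRT5, made up 0.0453% ± 0.00289 of the type I member counts in CA1, against 18.2% ± 0.234 in A10. Among the 4 type II members, KRT5 made up 35.0% ± 2.61 of the counts in NeoT, 51.3% ± 0.650 in T1, 27.3% ± 1.31 in CA1 and 71.1% ± 0.318 in A10. The basal pair KRT5 and KRT14 was thus largest in A10, and the type I member counts of T1 and CA1 were mostly KRT15.

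Set against 54 of the 55 keratin rows of the table, 28 type I and 26 type II genes without KRT222, the 8 members made up 1.92% ± 0.0975 of keratin mRNA per kb in NeoT, 42.6% ± 0.592 in T1, 30.5% ± 0.424 in CA1 and 48.4% ± 0.402 in A10. The rest was mainly KRT7, KRT8 and KRT18, keratins of simple epithelium, and the hair keratin KRT81, whose reads may be shared with its near copy KRT86. KRT18, the type I partner of KRT8, averaged 232 ± 10.1 CPM per kb in NeoT, 691 ± 15.5 in T1, 2245 ± 107 in CA1 and 246 ± 11.9 in A10. In NeoT it supplied 89.7% of type I keratin mRNA per kb. The members KRT14, KRT15, KRT16 and KRT17 together, not divided by length, stood at 26.6 ± 3.23 CPM there, against 2482 ± 103 CPM in A10. Total type II mRNA was 11.96 ± 0.243 times type I mRNA in NeoT, 1.80 ± 0.0277 times in T1, 1.20 ± 0.0185 times in CA1 and 3.09 ± 0.0479 times in A10. The order of these ratios was kept with coding lengths and with the union of exons, though their sizes moved.

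**Figure D4:**
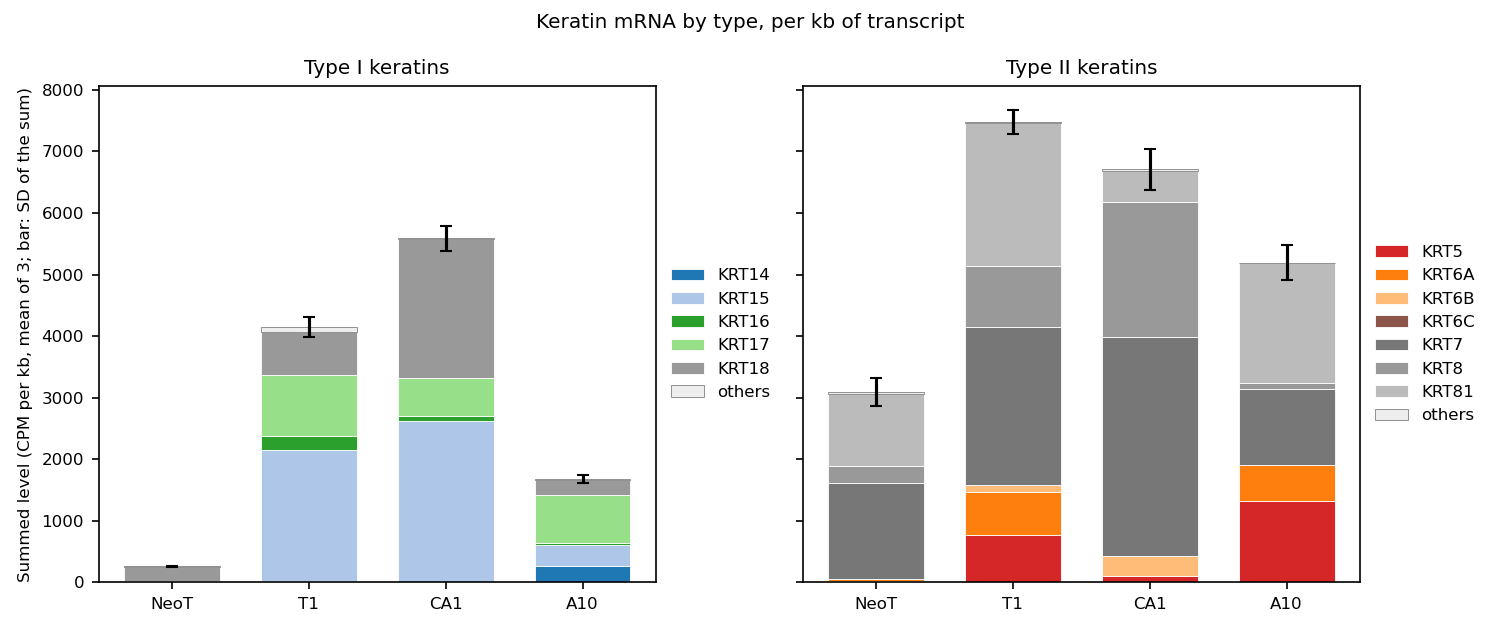
Summed level of type I keratins (left) and type II keratins (right) in each line, in CPM per kb of transcript, as the mean of 3 libraries with the SD of the sum as error bar. Colours mark the basal and stress keratins and greys the other keratins. The coloured part of the type I bar is mostly KRT15 in T1 and CA1, and the NeoT bars are nearly all grey.

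Of 5 simple epithelial keratins tested, 2 rose, 2 fell and 1 was not called in NeoT against A10, where 8 of 8 basal and stress keratins fell. Without NeoT replicate 1, NeoT replicate 3, A10 replicate 1 or A10 replicate 3, 1 of the 5 fell. Their median log2 fold change in NeoT was -0.09, against -0.04 over all genes. KRT8 averaged 473 ± 45.2 CPM in NeoT, 1657 ± 43.4 CPM in T1, 3699 ± 208 CPM in CA1 and 147 ± 13.0 CPM in A10. It was 3.215-fold higher in NeoT than in A10 (1.68 ± 0.08, edgeR adjusted p = 6.67e-13). KRT23 fell with the basal and stress keratins and was 18.5-fold lower in NeoT (-4.21 ± 0.28, adjusted p = 1.58e-10). KRT18 in NeoT did not differ from A10 beyond the spread (-0.09 ± 0.06, adjusted p = 0.185).

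Keratin filaments are held at desmosomes and hemidesmosomes by 17 genes that were listed as anchors, of which 16 were tested. Of these 16, 2 rose and 13 fell in NeoT against A10, 10 rose and 2 fell in T1, and 7 rose and 4 fell in CA1, where 70.4%, 51.9% and 70.9% of all genes were called in NeoT, T1 and CA1. Their median log2 fold change was -1.77 in NeoT, 0.35 in T1 and 0.04 in CA1, against -0.04, -0.01 and -0.02 over all genes. COL17A1, the hemidesmosome collagen of basal cells, averaged 0.926 ± 0.305 CPM in NeoT, 895 ± 17.9 CPM in T1, 915 ± 20.7 CPM in CA1 and 1067 ± 84.1 CPM in A10. It was 1176-fold lower in NeoT than in A10 (-10.20 ± 0.13, edgeR adjusted p = 1.77e-20) and so shared the low NeoT level of KRT15 and KRT17. The basal marker ITGB4, an integrin, went the other way, at 9355 ± 102 CPM in NeoT and 1061 ± 124 CPM in A10. Of 9 basal epithelial markers, with KRT5, KRT14, KRT15 and KRT17 among them, 1 rose and 8 fell in NeoT against A10. The 17 anchors summed to 12182 to 12551 CPM in NeoT and 6246 to 7279 CPM in A10. The desmosomal cadherin DSG3 averaged 5.39 ± 1.44 CPM in NeoT, 495 ± 14.7 CPM in T1, 202 ± 6.28 CPM in CA1 and 326 ± 18.01 CPM in A10. PPL, periplakin, which ties keratins to the cell edge, was 1.57-fold lower in NeoT, 3.799-fold higher in T1 and 4.67-fold higher in CA1 than in A10.

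Among 18 listed regulators of keratin genes, 5 rose and 11 fell in NeoT against A10, 7 rose and 5 fell in T1, and 6 rose and 8 fell in CA1, beside the same shares of all genes called (70.4%, 51.9% and 70.9%). Their median was -0.73 in NeoT, 0.12 in T1 and -0.14 in CA1, also with genes at 0 in a line placed at the bound of 3 counts. TP63, the transcription factor of basal epithelium that drives KRT5 and KRT14, had 0 counts in all NeoT libraries, 41.8 ± 1.83 CPM in T1, 27.1 ± 2.23 CPM in CA1 and 107 ± 2.22 CPM in A10. Taking 3 counts over the line as the floor, TP63 was at least 2252-fold lower in NeoT than in A10. Its order of lines, A10, T1, CA1, NeoT, was that of KRT5, and that of the KRT14 means, of which CA1 and NeoT did not differ beyond the spread. The basal type I members KRT15 and KRT17 had other orders. A link between TP63 and the keratin levels was not tested. GRHL2, an epithelial regulator, had 0 counts in NeoT and in A10, against 59.0 ± 2.59 CPM in T1 and 39.3 ± 3.25 CPM in CA1, so it was at least 1809-fold higher in T1 and at least 1204-fold higher in CA1 than in A10. ELF3, an epithelial ETS factor, was 30.0-fold lower in NeoT, 4.53-fold higher in T1 and 3.91-fold higher in CA1 than in A10. Those were the directions of KRT15, KRT6B, KRT6C and KRT16. GRHL3, a factor of skin barrier formation, fell in all 3 lines, to 1.34 ± 0.309 CPM in CA1, against 43.0 ± 4.41 CPM in A10.

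Of the genes that keratinocytes induce with the stress keratins, more fell than rose against A10 in each derived line. Of 19 tested, 1 rose and 18 fell in NeoT against A10, 5 rose and 11 fell in T1, and 7 rose and 12 fell in CA1, where 70.4%, 51.9% and 70.9% of all genes were called. Their median log2 fold change was -4.63 in NeoT, -1.51 in T1 and -1.90 in CA1, against -0.04, -0.01 and -0.02 over all genes, and with genes at 0 in a line placed at the bound of 3 counts the medians were the same. HBEGF, a ligand of the EGF receptor released in wounds, averaged 3.69 ± 0.468 CPM in NeoT, 221 ± 1.36 CPM in T1, 451 ± 11.4 CPM in CA1 and 67.4 ± 1.57 CPM in A10. That was the order of KRT15, of KRT6B and of the KRT6C means. LCN2, an iron-binding defence protein, had the same order, at 0.237 ± 0.0233 CPM in NeoT, 106 ± 1.82 CPM in T1, 179 ± 10.6 CPM in CA1 and 46.6 ± 3.41 CPM in A10. The cytokine IL1A was lower than A10 in all 3 lines, while IL1B was 15.1-fold lower in NeoT, 6.28-fold lower in T1 and 3.66-fold higher in CA1.

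Likeness of pattern was measured as the root mean square difference of centred log2 CPM over the 12 libraries, where a smaller value is closer. These libraries share 4 line means, so the measure reflects mainly 4 levels. Between members, the closest pair was KRT16 and KRT6C at 0.79, then KRT15 and KRT6B at 1.35 and KRT14 and KRT5 at 1.49. Still, 123 genes were nearer to KRT16 than KRT6C was. KRT6C held only 2 counts over the 3 NeoT libraries, and the prior count of 2 in log2 CPM narrows the range of so low a gene. Its likeness to KRT16, and to its closest gene below, rests partly on that floor. The farthest pairs were KRT15 and KRT6A at 5.39 and KRT6A and KRT6B at 5.30, so these 2 near-identical paralogs were among the least alike. The other KRT6 pairs were closer, KRT6A and KRT6C at 3.35 and KRT6B and KRT6C at 2.81. Among all other genes the closest to KRT16 was THBS1 at 0.28, which averaged 127 ± 9.87 CPM in NeoT, 1916 ± 31.1 CPM in T1, 1037 ± 17.9 CPM in CA1 and 436 ± 8.76 CPM in A10. The closest gene was AIF1L for KRT5 (0.57), GBP6 for KRT14 (0.40), AP1M2 for KRT15 (0.62) and SH3PXD2A-AS1 for KRT17 (0.30). For the KRT6 genes it was E2F2 for KRT6A (0.72), RAB25 for KRT6B (0.50) and SH3TC2 for KRT6C (0.45). RAB25, a trafficking GTPase of epithelial cells, had 0 counts in NeoT, 94.9 ± 4.19 CPM in T1, 133 ± 5.42 CPM in CA1 and 3.98 ± 0.0853 CPM in A10. That was the order of KRT6B, and also of KRT15 and of the KRT6C means.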

How the data were processed

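RNA of 4 cell lines, 3 libraries each, was sequenced with Illumina after DNase I treatment and an NEBNext Ultra library kit, per the labels' protocols. The authors deposited 1 table of expected counts (estimated counts) per gene, made with Salmon, going by the name of the deposited table, and left unscaled. The submitters' processing notes list GRCh38 and limma. Which annotation was used, and in which version Salmon was run, is not given in the sources used here. Of its values 10.1% were not whole, and all were rounded, by at most 0.5. Of 29744 rows, 10297 had no count.

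Counts were filtered with filterByExpr on the line, scaled with TMM and fitted over all 12 libraries with a mean per line (edgeR 4.0.16, R 4.3.3, quasi-likelihood, robust). All 6 pairs of lines and the 4 lines together were tested, two-sided. The fit was also tested on simulated data. Lengths per kb are the exons of the GENCODE v29 (GRCh38) transcript with the longest coding sequence, the shortest of ties. Promoters come from RefSeq GRCh38.p14, which matched 1 of 8 members. Coding sequences were aligned with Biopython 1.88. Tables were handled in Python 3.11.15 with numpy 2.4.6 and pandas 2.3.3, intervals came from scipy 1.17.1, and plots from matplotlib 3.10.9.

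The members, gene lists and tests were chosen with earlier results of these data known. The text names the 8 members, up to 4 genes per list with the smallest adjusted p over the 4 lines, the closest genes by pattern, and HRAS and epithelial checks; other genes it names, such as KRT16P2 and KRT86, were added after their values were seen. Alternatives were DESeq2 1.42.0, upper-quartile or RLE scaling, limma-voom (limma 3.58.1), a filter of 1 CPM in 3 or more libraries or none, only the lines compared, the replicate block, each library left out, paralogs summed, and other lengths. After the data were seen, a fit without T1 replicate 1 and NeoT replicate 3, one without rRNA rows and the union of exons as length were added. Intervals and floors (3 counts over a line) cover counting error only.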

Additional observations from a re-analysis of the deposited data

How the results depend on the processing

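Of 1151 values of the 8 keratins under the alternatives, 1139 kept their direction and their side of the threshold, including every value under another scaling, filter, DESeq2, limma-voom without the rRNA rows and without T1 replicate 1 and NeoT replicate 3 together. With paralogs summed, the tested value is that of the sum, a different quantity from each gene. The sum of KRT6A, KRT6B and KRT6C had the opposite sign to KRT6B and KRT6C in CA1 against A10 (-0.92) and against T1 (-1.37). KRT6C had no called direction against T1 on its own. Against NeoT, the sum in CA1 (3.27) had the opposite sign to KRT6A. Summing KRT14, KRT16, KRT17 and the KRT16 pseudogenes reversed KRT14 in T1 against A10 (0.19) and KRT16 in CA1 against A10 (-0.62), and made KRT14 in CA1 against NeoT a call (5.41). The 4 calls moved by leaving out a library concern KRT6C in T1 against A10 and KRT14 in CA1 against NeoT. Without NeoT replicate 3, which held its only counts, KRT6C in NeoT was at 0, and its fitted values then give no bound. The ratio of type II to type I mRNA was 13.6 in NeoT, 1.57 in T1, 1.03 in CA1 and 3.18 in A10 with coding lengths, and 15.5, 2.76, 1.59 and 4.14 in the same lines with the union of exons.

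The replicate numbers did not pair the samples: same-numbered libraries of different lines had correlations of -0.069 to 0.088, and 16 of 36 were closest to their own number. With the replicate block, 8 members were called in NeoT against A10, as without it, and 9981 genes against 10144, and the block changed no call of a member in the 6 comparisons. Depth limits KRT6C, and KRT6B in NeoT, with 2 to 9.04 counts a library.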
